A study of Mus musculus with 22 samples.

Results

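The matrix metalloproteinases were described here through 10 genes, Mmp2, Mmp3, Mmp8, Mmp9, Mmp10, Mmp11, Mmp12, Mmp13, Mmp14 and Mmp19. Their members were all probe sets that the platform annotation gives to exactly 1 of these genes, which were 15 of 45037 probe sets, and the 10 genes are among 18193 genes with such a probe set. Mmp2, Mmp9 and Mmp19 had 2 probe sets each and Mmp14 had 3. Every one of the 10 genes was measured, and no filter on low values was applied.

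The cells were mouse embryonic fibroblasts (MEFs), a mixed primary culture made from embryos, taken 7 days after infection with an adenovirus. Double MEFs (7 arrays) received Cre recombinase, which in these cells both switched on a mutant oncogene and deleted Wt1, a zinc finger transcription factor. Oncogene MEFs (5 arrays) carried the LSL allele of the same oncogene, which is silent until Cre removes a stop cassette, and received Cre. Wt1-null MEFs (5 arrays) carried the floxed allele labelled Wt1f/f and received Cre. Control MEFs (5 arrays), labelled wild type, received a GFP virus. Each comparison with the control therefore also compares the viruses. The labels name neither embryos nor clones, so the spread between replicates may be partly technical. All values are RMA values on the log2 scale from Affymetrix arrays. A difference of 1 on that scale is a doubling in signal, and precision is limited by how many arrays each group has.

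Matrix metalloproteinases are zinc-dependent enzymes that cut proteins of the extracellular matrix and many secreted and cell surface proteins. Most are secreted as inactive precursors, are activated by removal of a propeptide, and are held in check by the tissue inhibitors of metalloproteinases (TIMPs). In fibroblasts, transcription of several of them is known to respond to growth factors through AP-1 factors (dimers of Fos and Jun proteins) and ETS factors.

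Of the 10 genes, 5 lie on mouse chromosome 9. In the RefSeq order of assembly GRCm38.p6 they stand side by side with related genes as Mmp13, Mmp12, Mmp1b, Mmp3, Mmp1a, Mmp10 and Mmp8. RefSeq promoter sequences matched 7 of the 10 members. None was matched for Mmp2, Mmp9 or Mmp19, so no motif was searched there. The AP-1 motif, TGAGTCA or its reverse complement TGACTCA, was searched in the 250 bases before each start site on both strands. It was found before Mmp3, Mmp10 and Mmp13 and before the second of 2 start sites of Mmp12, and not in these windows of Mmp8, Mmp11 or Mmp14. Among all 32851 promoter sequences of this length, 4.46% held it. The 150 bases before the start sites of the 3 genes of the cluster that varied most between arrays are shown, with the AP-1 motif in capitals, followed by Mmp14 as a member without it.
Mmp3, chr9:7445672-7445821, plus strand: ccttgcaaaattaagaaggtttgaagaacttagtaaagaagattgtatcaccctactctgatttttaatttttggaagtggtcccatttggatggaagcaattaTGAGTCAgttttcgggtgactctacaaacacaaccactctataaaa
Mmp10, chr9:7502192-7502341, plus strand: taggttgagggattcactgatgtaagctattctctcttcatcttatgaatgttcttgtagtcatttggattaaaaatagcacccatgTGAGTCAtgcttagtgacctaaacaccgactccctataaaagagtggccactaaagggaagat
Mmp13, chr9:7272364-7272513, plus strand: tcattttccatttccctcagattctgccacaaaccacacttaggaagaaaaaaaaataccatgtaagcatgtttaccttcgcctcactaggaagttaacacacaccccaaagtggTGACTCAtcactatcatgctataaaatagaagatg
Mmp14, chr14:54431448-54431597, plus strand: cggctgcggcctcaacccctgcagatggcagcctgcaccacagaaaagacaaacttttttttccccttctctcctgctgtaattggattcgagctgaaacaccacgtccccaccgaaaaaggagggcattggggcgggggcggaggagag

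Counted from the RefSeq start site, with -1 as the base before it, the motif lay at -46 to -40 in Mmp3, at -63 to -57 in Mmp10 and at -35 to -29 in Mmp13. The same 3 promoters also held TATAAA on the sense strand within the last 50 bases, which 2.63% of all promoters do. The ETS-type motif AGGAAG, on either strand and apart from the AP-1 matches, was present in the 250 bases before Mmp3, Mmp8, Mmp13, Mmp14 and the first start site of Mmp12, and in 29.5% of all promoters. A match describes the letters of the window and is not a measured binding site.

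Several arrays stood apart. Wt1-null replicate 2 was nearly the same as double replicate 2, with an SD of their difference over all probe sets of 0.152, against 0.285 for the next closest pair of arrays from different groups. Results that rest on it are given with and without it. Another close pair was Wt1-null replicates 3 and 4 (SD 0.161). Double replicate 4 had the lowest mean correlation with the other arrays, 0.940. In 9 arrays with high Xist, 3 Y-linked genes read 3.65 to 5.06, called the background range here. Wt1 itself read between 4.16 and 4.77 in all 22 arrays, inside that range, so its deletion could not be checked. The 10 fibroblast markers were all above it, with array means between 11.8 and 13.2, and macrophage and neutrophil markers averaged between 5.44 and 6.299.

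Mmp3, or stromelysin-1, cuts proteoglycans, fibronectin and other matrix proteins and activates the precursors of other metalloproteinases. It read 11.54, 12.16 and 13.25 as the lowest, median and highest of 7 double arrays. The oncogene arrays read 11.98, 11.54, 11.67, 10.98 and 9.89, the Wt1-null arrays 9.37, 13.27, 9.22, 9.26 and 7.89, and the control arrays 8.80, 7.31, 8.47, 7.98 and 8.06. Every double and every oncogene array lay above every control array. The share of all genes whose arrays separated in this way is not given here, for Mmp3 or for the members described below. Wt1-null replicate 2 lay at the level of the double arrays, and the other 4 Wt1-null arrays lay below all oncogene arrays.

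Mmp3 averaged 12.20 ± 0.67 (SD, n = 7) in double MEFs and 8.12 ± 0.56 (SD, n = 5) in control MEFs. It rose by 4.08 ± 0.62 (SE) on the log2 scale in double MEFs, a 16.9-fold difference in signal (limma, adjusted p = 0.000985). In oncogene MEFs it averaged 11.21 ± 0.82 (SD, n = 5) and was higher than in control MEFs by 3.09 ± 0.67 (SE) (limma, adjusted p = 0.0197). That call was lost when control replicate 2 or 4 was left out (limma, adjusted p = 0.0682 and 0.0525), with changes of 2.88 and 3.05. Leaving out Wt1-null replicate 2, which enters through the shared spread, the SE was 0.41 and the adjusted p 0.000303 (limma). Within the set of accession numbers that held 7 double, 4 oncogene and 4 control arrays, the changes against control were 4.25 in double and 3.07 in oncogene MEFs, both called.

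Mmp2, or gelatinase A, degrades denatured collagen and type IV collagen of basement membranes. Its main probe set read 12.36, 12.70 and 13.33 as the lowest, median and highest of 7 double arrays. The oncogene arrays read 12.42, 12.05, 12.34, 12.95 and 12.94, the Wt1-null arrays 11.25, 12.75, 11.43, 11.40 and 11.95, and the control arrays 11.16, 10.39, 11.15, 10.17 and 11.80. The double and the oncogene arrays all lay above the control arrays, and overlapped each other. Without replicate 2, the Wt1-null arrays lay below every double and every oncogene array.

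Mmp2 rose by 1.85 ± 0.29 (SE), or 3.61-fold, in double MEFs against control MEFs (limma, adjusted p = 0.00104), and by 1.61 ± 0.31 (SE), or 3.05-fold, in oncogene MEFs against control MEFs (limma, adjusted p = 0.0105). The other probe set of Mmp2 gave 1.92 and 1.68, also called when all probe sets were tested, where 2.17% and 0.633% of probe sets were called higher. Both calls were kept under each of 36 alternatives, with changes of at least 1.66 in double and at least 1.42 in oncogene MEFs.

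**Figure D1:**
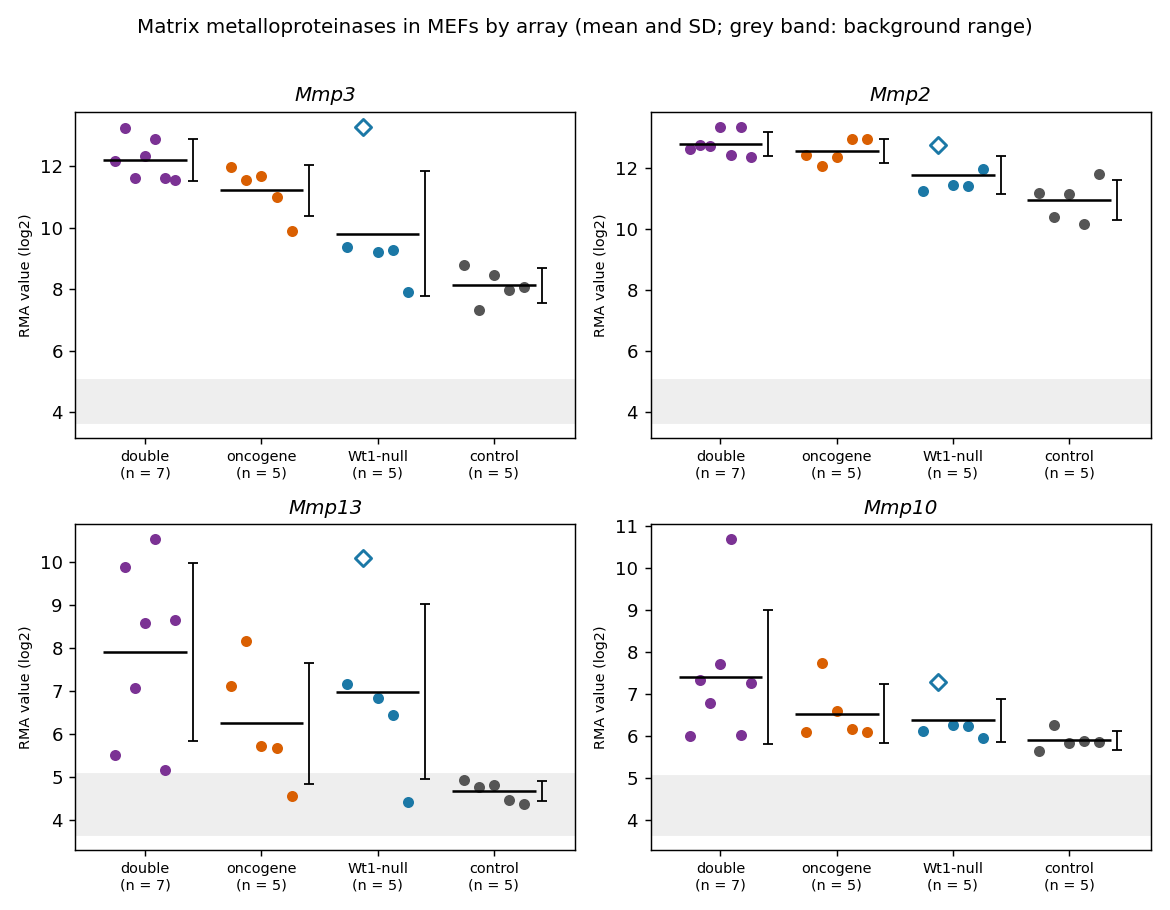
RMA value (log2) of Mmp3, Mmp2, Mmp13 and Mmp10 in each array, by group. Each point is an array, horizontal lines are group means, bars are SD, the open diamond is Wt1-null replicate 2 and the grey band is the background range of 3.65 to 5.06. For Mmp3 and Mmp2 all double and oncogene arrays lie above all control arrays, while Mmp13 spreads widely in every group that received Cre.

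Mmp13, the main interstitial collagenase of rodents, cuts fibrillar collagens and is known for its part in cartilage and bone remodelling. It read 5.16, 8.60 and 10.54 as the lowest, median and highest of 7 double arrays. The oncogene arrays read 7.11, 8.16, 5.73, 5.68 and 4.56, the Wt1-null arrays 7.17, 10.10, 6.84, 6.43 and 4.41, and the control arrays 4.93, 4.77, 4.80, 4.47 and 4.37. All 5 control arrays were within the background range, and so were oncogene replicate 6 and Wt1-null replicate 5. The SD was 2.07 in double, 1.4 in oncogene, 2.04 in Wt1-null and 0.24 in control MEFs.

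Mmp13 was higher by 3.25 ± 0.92 (SE) in double MEFs against control MEFs (limma, adjusted p = 0.0399), and no double array overlapped a control array. Because the control level was at background, the size of this change is not exact. The call was kept in 23 and lost in 13 of 36 alternatives. The losses included leaving out any 1 of the control arrays or double replicate 2, 4, 5 or 7, with adjusted p-values up to 0.0909. Over all 36 the change was 2.82 to 3.71. Within the largest accession set the change was 3.32 (limma, adjusted p = 0.0661). In oncogene MEFs the difference from control was 1.58 ± 0.995 (SE) and in Wt1-null MEFs 2.32 ± 0.995 (SE), neither called (limma, adjusted p = 0.491 and 0.345).

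Mmp10, or stromelysin-2, is the closest relative of Mmp3 in this set by name and substrates. It read 6.01, 7.28 and 10.69 as the lowest, median and highest of 7 double arrays. The oncogene arrays read 6.09, 7.73, 6.60, 6.18 and 6.09, the Wt1-null arrays 6.13, 7.28, 6.27, 6.24 and 5.97, and the control arrays 5.65, 6.27, 5.84, 5.89 and 5.87. The highest array was double replicate 5, which was also the highest for Mmp13, and double replicates 1 and 6 lay inside the control range. The difference between double and control MEFs was 1.504 ± 0.56 (SE) and was not called (limma, adjusted p = 0.119). With array weights it was 1.41 and called (limma, adjusted p = 0.0128).

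Mmp8, the neutrophil collagenase, and Mmp12, the macrophage elastase, complete the chromosome 9 cluster. Mmp12 read between 4.01 and 4.72 in all arrays and never left the background range. Mmp8 read 5.07 to 5.79 in double, 5.00 to 5.25 in oncogene, 5.14 to 5.29 in Wt1-null and 5.03 to 5.22 in control arrays, at or just above the top of that range. Its difference between double and control MEFs was 0.31 ± 0.11 (SE), not called (limma, adjusted p = 0.0874). It was called without double replicate 6, with repeated quantile normalization and with the replicate block (limma, adjusted p = 0.0327, 0.0481 and 0.0378). For the cell types these enzymes are named for, 2 of 10 macrophage markers (Ptprc and Itgam) and 1 of 8 neutrophil markers were at background. Other markers averaged above it. Cd14, a receptor for bacterial lipids, averaged 7.46 in double and 6.86 in control MEFs. S100a8, a calcium-binding protein of neutrophils, read 4.88 to 9.79 in double arrays. In control arrays S100a8 read 4.78 to 5.12, at or just above background. Only 5 of 10 macrophage and 3 of 8 neutrophil markers had a higher mean in double than in control MEFs. The median changes of the 2 lists were -0.03 and -0.07. The neutrophil list had no call in double against control MEFs by limma. The part of such cells in the Mmp8 and Mmp12 values was not tested.

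Mmp19, a secreted enzyme that cuts basement membrane proteins, was measured by 2 probe sets. The main one read 8.21, 8.42 and 9.52 as the lowest, median and highest of 7 double arrays. The oncogene arrays read 8.53, 7.66, 7.81, 7.61 and 7.64, the Wt1-null arrays 7.26, 8.63, 7.36, 7.18 and 7.53, and the control arrays 7.78, 6.75, 7.90, 7.80 and 7.57. All double arrays lay above all control arrays. Among the oncogene and Wt1-null arrays, oncogene replicate 1 and Wt1-null replicate 2 reached the double range.

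Mmp19 rose by 0.996 ± 0.27 (SE) in double MEFs against control MEFs, close to a doubling (limma, adjusted p = 0.0289). The other probe set gave 0.41 ± 0.31 (SE) with no call (limma, adjusted p = 0.546), and there the groups overlapped. The mean of both gave 0.70 (limma, adjusted p = 0.146), so the call rests on 1 probe set. It was also lost without double replicate 5, control replicate 2 or control replicate 5 (limma, adjusted p = 0.0586, 0.105 and 0.0545) and with the replicate block (adjusted p = 0.0597).

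Mmp14, the membrane-bound metalloproteinase that activates the Mmp2 precursor at the cell surface, read 12.04 to 12.98 in double, 11.96 to 12.83 in oncogene, 12.44 to 12.96 in Wt1-null and 12.13 to 12.89 in control arrays. All 4 groups overlapped. The difference between double and control MEFs was 0.03, with a 95% confidence interval of -0.38 to 0.43, and that between oncogene and control MEFs was -0.09, with an interval of -0.52 to 0.35. The other 2 probe sets gave -0.04 and -0.19 in double and -0.25 and -0.35 in oncogene MEFs, none called. Over the same arrays Mmp2 was called in both comparisons.

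Mmp11, or stromelysin-3, an enzyme of tissue remodelling, read 8.24 to 9.25 in double, 8.15 to 8.76 in oncogene, 7.61 to 8.45 in Wt1-null and 8.28 to 8.99 in control arrays. Its interval for double against control was -0.39 to 0.38. Mmp11 differed by -0.40 in Wt1-null against control MEFs and by 0.39 in double against Wt1-null MEFs. Neither was called (limma, adjusted p = 0.409 and 0.322), and both were with array weights (limma, adjusted p = 0.00561 and 0.0144). Mmp9, or gelatinase B, read 6.17 to 6.83 in double, 5.96 to 6.58 in oncogene, 5.99 to 6.63 in Wt1-null and 6.08 to 6.75 in control arrays. Its interval for double against control was -0.33 to 0.27, and its second probe set read 4.39 to 5.46 over all arrays, most of it within the background range. Of the 2 gelatinases, Mmp2 was called in both comparisons with control and Mmp9 in neither, and the difference between them was not tested.

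**Figure D2:**
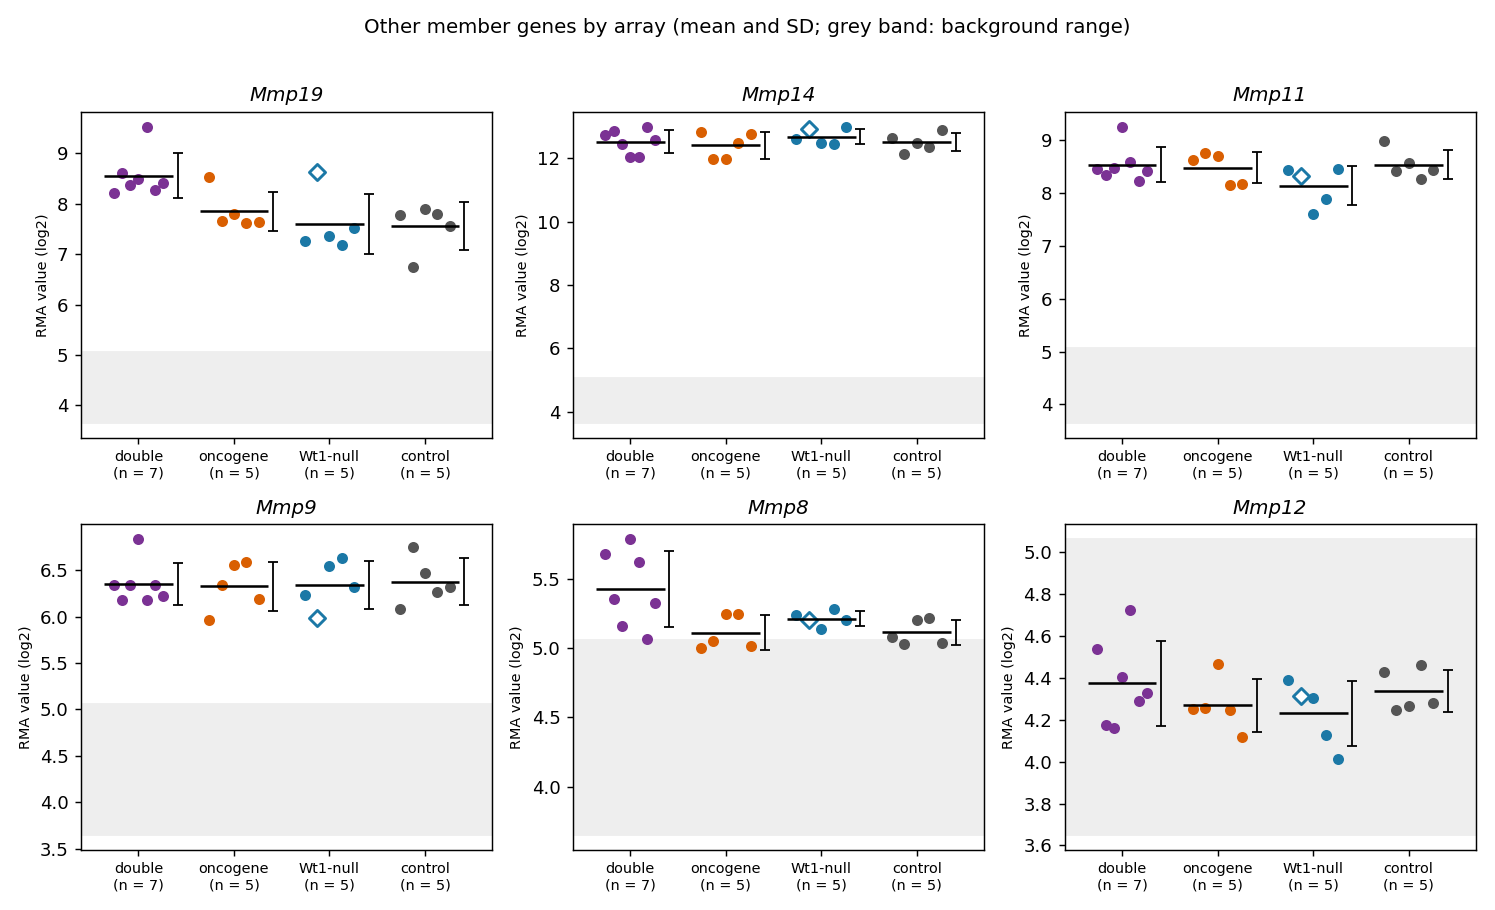
RMA value (log2) of Mmp19, Mmp14, Mmp11, Mmp9, Mmp8 and Mmp12 in each array, by group, with the main probe set of each gene and a separate axis range per panel. Points are arrays, lines are means, bars are SD, the open diamond is Wt1-null replicate 2 and the grey band is the background range. The double arrays lie above the control arrays for Mmp19, the groups overlap for the other 5 genes, and Mmp12 stays within 4.01 to 4.72.

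Counted over the set, 4 of 10 members were called higher in double against control MEFs (Mmp3, Mmp2, Mmp13 and Mmp19) and 0 lower, while 3.48% of all genes were called higher. Their median change was 0.66, beside -0.02 over all genes. In oncogene against control MEFs, 2 of 10 were called higher (Mmp3 and Mmp2) and 0 lower, beside 1.32% of all genes called higher. The median change there was 0.14, beside -0.03 over all genes. Both comparisons share the 5 control arrays.

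In Wt1-null against control MEFs, 0 of 10 members were called by limma, where 0.104% of all genes were. An unadjusted p below 0.05 was found for 3 of 10 (Mmp2, Mmp3 and Mmp13), beside 12.7% of all genes. Mmp3 averaged 9.80 ± 2.03 (SD, n = 5) in Wt1-null MEFs, a difference of 1.68 ± 0.67 (SE) from control, and Mmp2 differed by 0.82 ± 0.31 (SE) (limma, adjusted p = 0.323 and 0.300). Without Wt1-null replicate 2 these differences were 0.81 ± 0.44 and 0.57 ± 0.29 (SE), and the Mmp13 difference was 1.54 ± 0.94 (SE), none called, where 0.0715% of all genes were. In the accession set with 3 Wt1-null arrays and 1 control array, Mmp3 read 9.22, 9.26 and 7.89 in Wt1-null replicates 3 to 5 and 8.80 in control replicate 1, so the values overlapped.

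Double against oncogene MEFs tests deletion of Wt1 where the oncogene was active and all cells had received Cre. High Xist, a transcript of female cells, was present in 5 of 7 double and 0 of 5 oncogene arrays, and in 2 of 5 Wt1-null and 2 of 5 control arrays, and its part in the differences was not tested. On the main probe sets all 10 members had a higher mean in the double group, with a median difference of 0.28 beside 0.01 over all genes. The share of all genes with a higher mean was not counted. Some differences were near 0, at 0.02 for Mmp9 and 0.05 for Mmp11. The sign turned in 9 of 36 alternatives for Mmp9, in 4 for Mmp11 and in 1 for Mmp2. The second Mmp9 probe set gave -0.10. By limma 0 of 10 were called, beside 0% of all genes. An unadjusted p below 0.05 was found for 2 of 10 (Mmp8 and Mmp19), beside 3.09% of all genes. Mmp3 differed by 0.99, with a 95% confidence interval of -0.31 to 2.29, Mmp13 by 1.67, with an interval of -0.25 to 3.59, and Mmp19 by 0.71, with an interval of 0.15 to 1.26 before any adjustment for the number of genes. The other Mmp19 probe set gave 0.39 ± 0.31 (SE), not called. For Mmp2 the difference was 0.24, with an interval of -0.35 to 0.84. Wt1-null replicate 2 enters these intervals through the shared estimate of spread. Without it the same Mmp3 difference had an interval of 0.19 to 1.79, and within the largest accession set the difference was 1.18, with an interval of 0.35 to 2.01. Neither was called after adjustment over all genes (limma, adjusted p = 0.99973 and 0.99998).

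Double against Wt1-null MEFs tests the oncogene where Wt1 was deleted, again with Cre in both groups. With all arrays 0 of 10 members were called by limma, beside 0.0824% of all genes. An unadjusted p below 0.05 was found for 4 of 10 (Mmp2, Mmp3, Mmp11 and Mmp19), beside 14.8% of all genes. Without Wt1-null replicate 2, 3 of 10 were called higher, beside 3.24% of all genes. Mmp3 then averaged 12.20 ± 0.67 (SD, n = 7) in double MEFs and 8.94 ± 0.70 (SD, n = 4) in Wt1-null MEFs, a difference of 3.27 ± 0.41 (SE) (limma, adjusted p = 0.00023). Mmp2 was higher by 1.28 ± 0.27 (SE) and Mmp19 by 1.22 ± 0.24 (SE) (limma, adjusted p = 0.0097 and 0.00534). With all arrays the same differences were 2.40, 1.03 and 0.96 (limma, adjusted p = 0.0943, 0.118 and 0.113). Leaving out both Wt1-null replicate 2 and double replicate 2 gave 3.09, 1.28 and 1.22, all called. The other Mmp19 probe set gave 0.77 ± 0.31 (SE) with all arrays and was not called (limma, adjusted p = 0.291). Its difference without Wt1-null replicate 2 is not given here. No accession set held both groups, so the set of accession numbers and this comparison cannot be told apart except through the other groups. With the set as a fixed block the Mmp3 difference was 3.11 ± 0.92 (SE), not called (limma, adjusted p = 0.562).

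**Figure D3:**
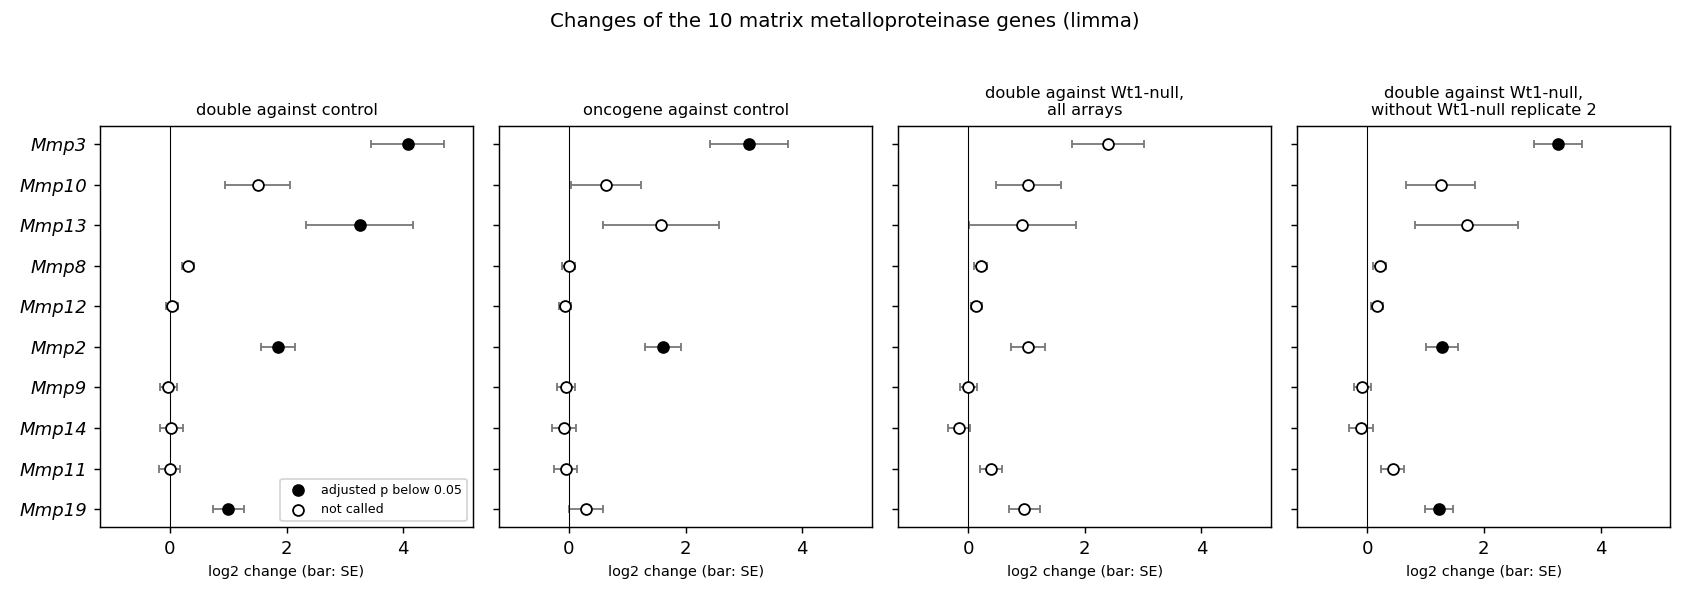
Log2 change with SE (limma) of the 10 members, chromosome 9 genes first, in double against control, oncogene against control, and double against Wt1-null MEFs with all arrays and without Wt1-null replicate 2. Filled points have an adjusted p below 0.05. Mmp3 and Mmp2 are called in both comparisons with control, and Mmp3, Mmp2 and Mmp19 are called against Wt1-null MEFs once replicate 2 is left out.

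Oncogene against Wt1-null MEFs, both given Cre, had 0 of 10 members called by limma, beside 0.0165% of all genes. An unadjusted p below 0.05 was found for 2 of 10 (Mmp2 and Mmp3), beside 7.14% of all genes. Without Wt1-null replicate 2, Mmp3 was higher by 2.28 ± 0.44 (SE) (limma, adjusted p = 0.0136), the 1 member called beside 0.638% of all genes called higher. In the accession set with 1 oncogene and 2 Wt1-null arrays, Mmp3 read 11.98 in oncogene replicate 1 and 9.37 and 13.27 in Wt1-null replicates 1 and 2. The interaction, double minus Wt1-null set against oncogene minus control, was called for 0 of 10 members by limma, beside 0.011% of all genes. An unadjusted p below 0.05 was found for 0 of 10, beside 8.55% of all genes. For Mmp3 the interaction was -0.69 ± 0.92 (SE), and 0.18 ± 0.58 (SE) without Wt1-null replicate 2.

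The order of the 4 groups was therefore double, oncogene, Wt1-null and control for the means of Mmp3 and Mmp2, and with all arrays no step between neighbours was called. The Mmp3 step from oncogene to Wt1-null MEFs was called without Wt1-null replicate 2. For Mmp13 the order of means was double, Wt1-null, oncogene and control, and no step between neighbours was called. Its middle groups changed places without Wt1-null replicate 2, at 6.25 in oncogene and 6.21 in Wt1-null MEFs. For Mmp19 the order with all arrays was double, oncogene, Wt1-null and control, with no step between neighbours called. The place of its last groups rested on that array, since without it Mmp19 averaged 7.33 in Wt1-null MEFs and 7.56 in control MEFs. On the other probe set Wt1-null MEFs were below control MEFs with all arrays, at 6.63 and 6.99.

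The members did not all follow each other from array to array. Double replicate 5 was highest for Mmp13, Mmp10 and Mmp19, at 10.54, 10.69 and 9.52, but read 12.43 for Mmp2, the lower part of its group. Double replicate 6 read 13.33 for Mmp2 but 5.16 for Mmp13 and 6.03 for Mmp10. Oncogene replicate 6 had the lowest Mmp3 and Mmp13 of its group, 9.89 and 4.56, and an Mmp2 of 12.94. Wt1-null replicate 5 showed the same arrangement, with Mmp3 and Mmp13 lowest in its group at 7.89 and 4.41 and Mmp2 at 11.95, the highest of its group after replicate 2.

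**Figure D4:**
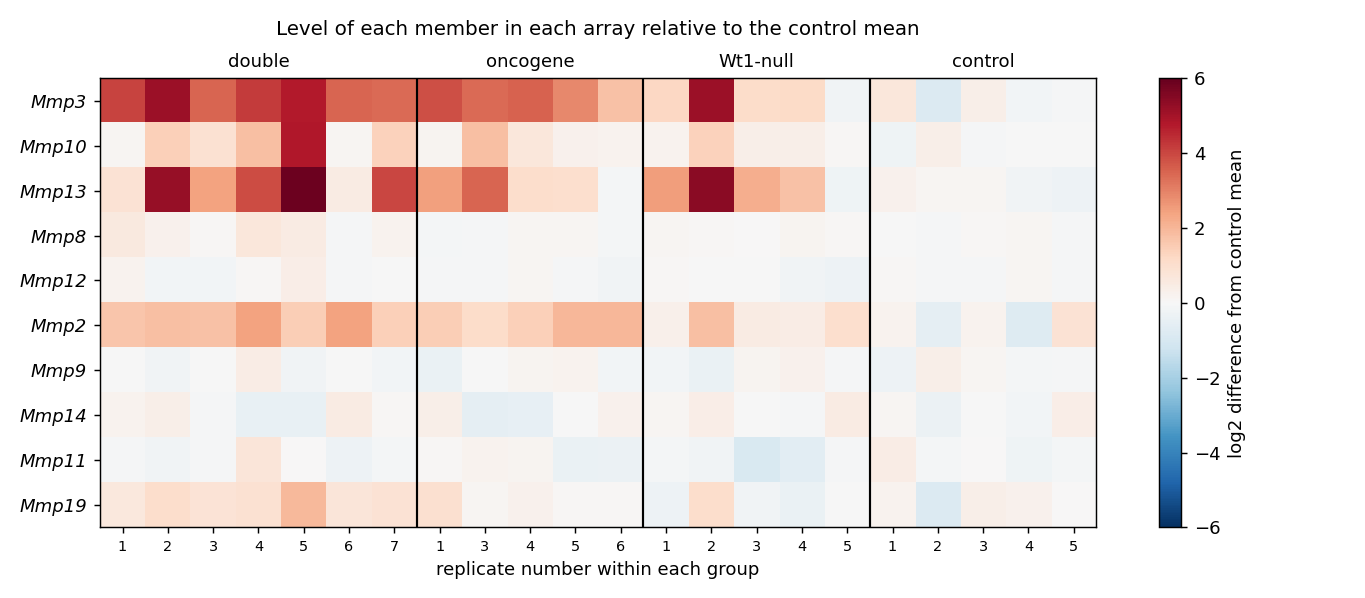
Level of each member in each array as the log2 difference from the mean of the control arrays, with arrays in columns by group and replicate number and members in rows, chromosome 9 genes first. Red is above and blue below the control mean. Mmp3 is strongly red in the double and oncogene arrays and in Wt1-null replicate 2, and Mmp13 and Mmp10 are most intense in double replicate 5.

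The genes most like each member were sought among 12437 other genes with a mean of at least 6, by Pearson correlation over the 22 arrays, which include the near-identical pairs and mix group differences with differences between arrays. For Mmp3 they were Frzb, a secreted Wnt antagonist (r = 0.953), Spry2, a feedback inhibitor of growth factor signalling (r = 0.945), and Cacnb2, a calcium channel subunit (r = 0.943). Within groups these were 0.905, 0.886 and 0.842. For Mmp2 they were Igdcc4, the sphingosine 1-phosphate receptor S1pr3 and the matrix protease Adamts10, with r of 0.898 to 0.909.

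For Mmp13 the most alike were 2 serine protease genes, Mcpt8 (r = 0.946) and Gzme (r = 0.927), and F11r, a junctional adhesion molecule (r = 0.925), with 0.897 to 0.946 within groups. Mcpt8 read 7.72 to 13.11 in double, 7.79 to 11.57 in oncogene, 5.42 to 11.67 in Wt1-null and 5.93 to 7.77 in control arrays, and double replicate 5 was again the highest. For Mmp10 they were Tuft1, C77080 and Ankrd6 (0.909 to 0.923), for Mmp19 Rhbdl1, Blnk and Tnfrsf21 (0.846 to 0.859), and for Mmp14 Ecrg4, the chemokine Cxcl5 and the collagen-modifying protein Crtap (0.810 to 0.848). For Mmp11 the values were 0.814 to 0.850. Those for Mmp9 (0.876 to 0.880), Mmp8 and Mmp12 belong to genes with small differences between arrays.

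Among other genes of the system, the 8 further matrix metalloproteinases measured had no call in any of the 7 comparisons by limma, with a median change of 0.04 in double against control MEFs, and 3 of them were at background. The 7 inhibitors, Timp1 to Timp4, Reck, A2m and Pzp, had no call either. Timp1, a broad secreted inhibitor, averaged 13.95 ± 0.21 in the 7 double arrays and 14.0 ± 0.12 in the 5 control arrays (SD). Reck, a membrane-anchored inhibitor, differed by 0.87 ± 0.30 (SE) between double and control MEFs and was not called (limma, adjusted p = 0.0929).

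Of the 9 AP-1 genes, 1 was called higher in double and in oncogene against control MEFs and 0 lower. Over all genes 3.48% and 1.32% were called higher in these comparisons. This was Fosl1, a Fos family member, with changes of 1.15 ± 0.26 and 1.12 ± 0.28 (SE) (limma, adjusted p = 0.0123 and 0.0425). It read 10.01 to 11.21 in double, 9.96 to 10.96 in oncogene, 9.70 to 11.07 in Wt1-null and 8.73 to 9.79 in control arrays. Of the 7 ETS genes 2 were called higher in both comparisons, beside the same shares of all genes. Etv5 changed by 1.73 and 1.61 and Elk3 by 0.52 and 0.58 in double and oncogene MEFs. Without Wt1-null replicate 2, Etv5 also exceeded its Wt1-null level in double MEFs, by 1.77 (limma, adjusted p = 0.00129). Whether these factors act on the members was not tested.

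Of the 10 matrix substrates measured, 1 was called higher in double against control MEFs, where 3.48% of all genes were. This was the adhesion protein fibronectin, Fn1, higher by 0.91 ± 0.24 (SE) (limma, adjusted p = 0.0256). Among 12 proteases of the ADAM and ADAMTS families, 9 genes of plasminogen and precursor activation and 12 cytokine and growth factor inducers, none was called in any comparison with all arrays. Without Wt1-null replicate 2, Adamts12, Adam12 and Adamts5 were lower in double against Wt1-null MEFs, with changes of -2.71, -2.58 and -1.53 (limma, adjusted p = 0.00305, 0.00487 and 0.0379), where Mmp3, Mmp2 and Mmp19 were higher. Other list genes were also called lower there, Plaur, the urokinase receptor (-1.503), Fgf2, a fibroblast growth factor (-1.65), and Acan, the cartilage proteoglycan aggrecan (-1.05). In that comparison 1.85% of all genes were called lower.

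Single markers of cell types were also called in the comparisons with control, while the median changes of their lists were small. In double against control MEFs these were 0.02 for fibroblast, 0.11 for epithelial, 0.03 for endothelial and -0.03 for macrophage markers. Changes there were above 0 for 5 of the 7 epithelial markers. Of 7 epithelial markers 1 was called, Krt7, a simple epithelial keratin, which was lower in double and oncogene against control MEFs, with changes of -2.87 and -2.64 (limma, adjusted p = 0.00406 and 0.022). It averaged 6.00 in double, 6.23 in oncogene and 8.87 in control MEFs. The share of all genes called lower in these comparisons is not given here. The array means of the epithelial list ran from 6.28 to 7.40 in double, from 6.27 to 7.13 in oncogene and from 6.55 to 7.58 in control arrays.

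Of 10 fibroblast markers 1 was called in both comparisons, Pdgfra, a PDGF receptor, higher by 1.78 and 1.97 (limma, adjusted p = 0.0136 and 0.0233). Over all genes 3.48% were called higher in double and 1.32% in oncogene against control MEFs. The array means of that list overlapped, at 12.28 to 13.05 in double, 12.25 to 13.17 in oncogene and 11.79 to 12.80 in control arrays. Of 6 endothelial markers, 3 of them at background, Tek, the angiopoietin receptor, was higher by 1.29 in double against control MEFs (limma, adjusted p = 0.0448). Of 10 macrophage markers Cd68, a lysosomal protein, was higher by 0.80 ± 0.22 (SE) in the same comparison (limma, adjusted p = 0.0305). The array means of the macrophage list ran from 5.89 to 6.299 in double and from 5.74 to 5.99 in control arrays. The neutrophil, chondrocyte, osteoblast and osteoclast lists had no call in either comparison by limma. The part of these markers in the Mmp results was not tested.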

How the data were processed

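Per the labels and design text, the authors deposited log2 values made with Expression Console by RMA. This method subtracts background, gives all arrays a common distribution and summarises each probe set. It compresses differences near background and cannot show a shift common to nearly all transcripts. Deposited values ran from 3.29 to 15.12. The name of the mutant oncogene is not reported here. Of 45101 probe sets, 64 were controls and 34945 had 1 gene in the platform annotation. Where a gene had several probe sets, the one with the greatest mean level stood for it. The design text counts 6 oncogene arrays, and 5 were analysed here.

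Group means were fitted for 18193 genes by limma (3.58.1, under R 4.3.3, functions lmFit and eBayes) on 22 arrays, with Benjamini-Hochberg adjustment over all genes within each of 7 comparisons. Called means adjusted p under 0.05. The fit was tested on simulated arrays with independent noise, for oncogene against control. It called 74% of 100 genes changed by 1 on the log2 scale and 97% of 100 changed by 2, so some changes of 1 were missed. The simulated arrays held no near-identical pairs and no accession sets. The members, lists and comparisons were chosen with earlier results of these data known. The genes named were the members, list genes that were called, Wt1 and, for each member, the 3 genes of highest correlation. Genes of a list named without a call were chosen after their values were seen. Alternatives were other probe set rules, a filter on dim genes, median centring, repeated quantile normalization, other variance models, array weights, blocks for replicate number and accession set, and left-out arrays. The 3 accession sets are runs of sample accession numbers, not stated batches. Promoter sequences are RefSeq's, assembly GRCm38.p6.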

Additional observations from a re-analysis of the deposited data

Results flagged for a closer look

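Each probe set was checked in each group for 1 array far from the rest by Dixon's test, in 60 sets of values, of which 11 stood out, where chance gives about 1 in 20. Wt1-null replicate 2 stood high for Mmp3 at 13.27 (next 9.37), Mmp10 at 7.28 (next 6.27) and Mmp19 at 8.63 (next 7.53). Double replicate 5 stood high for Mmp10 at 10.69 (next 7.71) and Mmp19 at 9.52 (next 8.61). Double replicate 4 stood high for both probe sets of Mmp9, at 6.83 (next 6.34) and 5.46 (next 4.84), and for Mmp11 at 9.25 (next 8.59). Oncogene replicate 1 stood high for Mmp19 at 8.53 (next 7.81). Control replicate 2 stood low for both probe sets of Mmp19, at 6.75 (next 7.57) and 5.96 (next 7.10).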

How the results depend on the processing

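Over 70 member values and 2456 alternative values, 0 reversed a call, 20 lost one and 23 gained one. With double against oncogene, 0 members were called in all 38 alternatives. Array weights, which count arrays unlike their group less, called members in several comparisons where the equal-weight fit called 0. In double against Wt1-null 4 were called higher, Mmp2, Mmp3, Mmp11 and Mmp19. In oncogene against Wt1-null 1 was called higher, Mmp2. In the interaction 2 were called, Mmp11 and Mmp19, both above 0. When Wt1-null was set against control 4 were called, with Mmp2, Mmp3 and Mmp13 higher and Mmp11 lower, at -0.54 (limma, adjusted p = 0.00561). Array weights called 5 in double against control, Mmp10 being the gain. Leaving out Wt1-null replicate 2 and double replicate 2 together gave 3 in double against Wt1-null and 1 in oncogene against Wt1-null. The share of all genes called was not counted with array weights, the joint omission, the replicate block or most single omissions. Member counts in these settings therefore have no such share beside them. The causes were not tested. Leaving out 1 array at a time gave 2 to 5 called members in double against control, 1 to 2 in oncogene against control, 0 to 3 in double against Wt1-null and 0 to 1 in oncogene against Wt1-null. The 2 in double against control came without double replicate 5, control replicate 2 or control replicate 5, and the highest value in each comparison with Wt1-null came without Wt1-null replicate 2.

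The main fit did not treat arrays with the same replicate number as pairs. Deviations from group means correlated above 0.1 for 13 of 28 pairs with the same number, with a median of 0.04. For pairs with different numbers these were 51 of 152 and -0.01. Wt1-null and double replicate 2 were the closest arrays of different groups, followed by oncogene and double replicate 6. These values do not settle whether some numbers mark pairs. With the replicate block, 4 members were called in double against control and 2 in oncogene against control, the same counts as without it, with Mmp8 in and Mmp19 out in double against control, and 0 in the other comparisons. Low signal limits Mmp12, Mmp8, the second probe set of Mmp9 and the control level of Mmp13, which lie at or near background. The background range comes from 3 Y-linked genes. Whether the main probe set of Mmp9 and the control level of Mmp10, both above that range, hold true signal was not tested.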

Other observations

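Mmp1a and Mmp1b, the neighbours of Mmp3 on chromosome 9, were looked at after their values were seen. Mmp1a read 6.80 and Mmp1b 5.63 in double replicate 5. The other arrays read 4.05 to 4.99 for Mmp1a and 3.83 to 4.38 for Mmp1b, all within the background range. That array was also the highest for Mmp13 and Mmp10. Neither gene was called in any comparison by limma.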
